A study of Homo sapiens with 6 samples.

Results

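The genes described here are 32 genes of cholesterol and fatty acid synthesis. They were chosen by symbol from knowledge of the pathways, with earlier results of these data known. Each was matched to 1 of the 62492 gene rows of every library. They comprise 18 sterol enzymes from ACAT2 to DHCR7, 6 regulators and carriers (INSIG1, INSIG2, SCAP, SREBF1, SREBF2 and STARD4) and 8 fatty acid enzymes (FASN, ACACA, ACLY, ACSS2, SCD, FADS1, FADS2 and ELOVL6). HCT116, a line from a human colorectal carcinoma and labelled WT in both groups, was profiled by RNA-seq after transfection of siControl or of siNONO, 1 duplex against the RNA of the paraspeckle protein NONO, with each siRNA at 20 nM. Each group held 3 libraries of polyA RNA, numbered as Sets 1 to 3 with 1 siControl and 1 siNONO library in each Set. Nothing in the labels says whether the Sets were separate cultures. The p-values measure the spread of the difference between siNONO and siControl across these Sets, which may be technical. Because siNONO was 1 duplex, the loss of NONO and other effects of that duplex cannot be told apart.

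Cells make cholesterol from acetyl-CoA through the mevalonate steps to farnesyl diphosphate, 2 molecules of which are joined to squalene, which is then cyclised to lanosterol and converted to cholesterol. Fatty acids are built from the same acetyl-CoA by acetyl-CoA carboxylase and fatty acid synthase, and are then elongated and desaturated. Both routes are known to be induced by the SREBP transcription factors, which SCAP escorts to the Golgi for cleavage when sterol is low and which the INSIG proteins retain in the endoplasmic reticulum when sterol is high. The comparison of siNONO with siControl asks here which of these genes changed when NONO was depleted, and whether the sterol and fatty acid enzymes moved alike.

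NONO was examined first. It had 496, 495 and 516 CPM in the siControl libraries and 89.5, 95.5 and 100 CPM in the siNONO libraries of Sets 1 to 3, where CPM are counts relative to library size, scaled by TMM, a normalisation that sets most genes level between libraries. Its log2 fold change was -2.40 ± 0.0337 (SE, n = 3 per group), with an adjusted p of 2.47e-13 in edgeR's quasi-likelihood test. Library totals ran from 21765393 to 32659002 estimated counts. Of the epithelial markers, EPCAM, CDH1, KRT8, KRT18, KRT19 and CDX2 passed the filter on low counts, and EPCAM (0.32, adjusted p = 3.52e-06) and KRT19 (0.14, adjusted p = 0.00731) were called higher in siNONO, whereas CDX1 had no counts and VIL1 at most 0.17 TPM, a level per length of transcript. Of the markers of other cells, PTPRC, CD3E and COL1A2 were at or near 0, ALB had at most 1.01 TPM and COL1A1 16.16 to 19.02 TPM, and their sum with VWF ran from 16.77 to 19.54 TPM in siControl and from 17.42 to 19.11 TPM in siNONO (PECAM1 was not matched). The part of these markers in the lipid results was not tested. Of all 17000 genes tested, 7924 (46.6%) had an adjusted p of at most 0.05, the threshold for a call here, with 3939 higher (23.2%) and 3985 lower (23.4%) in siNONO.

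All 32 genes passed the filter, and 17 of them (53.1%) were called, a share close to the 46.6% of all genes. Of these, 12 (37.5%) were higher in siNONO and 5 (15.6%) lower, beside 23.2% and 23.4% of all genes. The changes were small: the median log2 fold change was 0.10, the median of its absolute size was 0.15, against 0.21 over all genes, and only INSIG1 (0.53) and ACLY (-0.72) changed by at least 0.5. The CPM of the 3 siNONO libraries all lay above those of siControl for 13 genes (40.6%, against 23.9% of all genes) and all below for 5 (15.6%, against 24.0%). These shares of called genes are a description of a list that was not chosen at random, but with earlier results of these data known.

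The split between higher and lower depended on the scale. On log2(TPM + 1), tested with limma with the Set as a block, 13 of the 32 genes were called, 6 higher and 7 lower, so that 46.2% of the calls were higher, against 70.6% on counts. Over all genes, that fit made 5257 calls, 1643 of them higher, and its median log2 fold change was -0.07. Differences between the groups are therefore given on TMM-scaled counts below, and TPM are used for the levels of genes beside each other.

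The levels spanned a wide range in siControl. SCD, the desaturase that makes oleate, led with 817 ± 24.4 TPM (SD, n = 3), followed by FASN, the fatty acid synthase, with 330 ± 24.6 TPM. FDFT1, the squalene synthase, SREBF1, which encodes an SREBP precursor, and FDPS, the farnesyl diphosphate synthase, had 203 ± 4.0, 194 ± 18.2 and 187 ± 2.80 TPM, of which SREBF1 and its neighbours in that order overlapped within their SDs. The lowest were HSD17B7, a reductase of the late sterol steps, with 18.2 ± 0.698 TPM and FADS2, a desaturase of polyunsaturated fatty acids, with 10.8 ± 0.475 TPM. The summed level of the 18 sterol enzymes was 1344, 1295 and 1329 TPM in siControl and 1323, 1246 and 1328 TPM in siNONO. The 8 fatty acid enzymes summed to 1564, 1497 and 1582 TPM in siControl and to 1545, 1474 and 1559 TPM in siNONO. Within each Set both sums were lower in siNONO, and the ranges of the groups overlapped. Calls over all genes also leaned to lower on log2(TPM + 1), with 1643 higher and 3614 lower. On counts, the median log2 fold change was 0.10 for the sterol enzymes and 0.04 for the fatty acid enzymes.

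**Figure D1:**
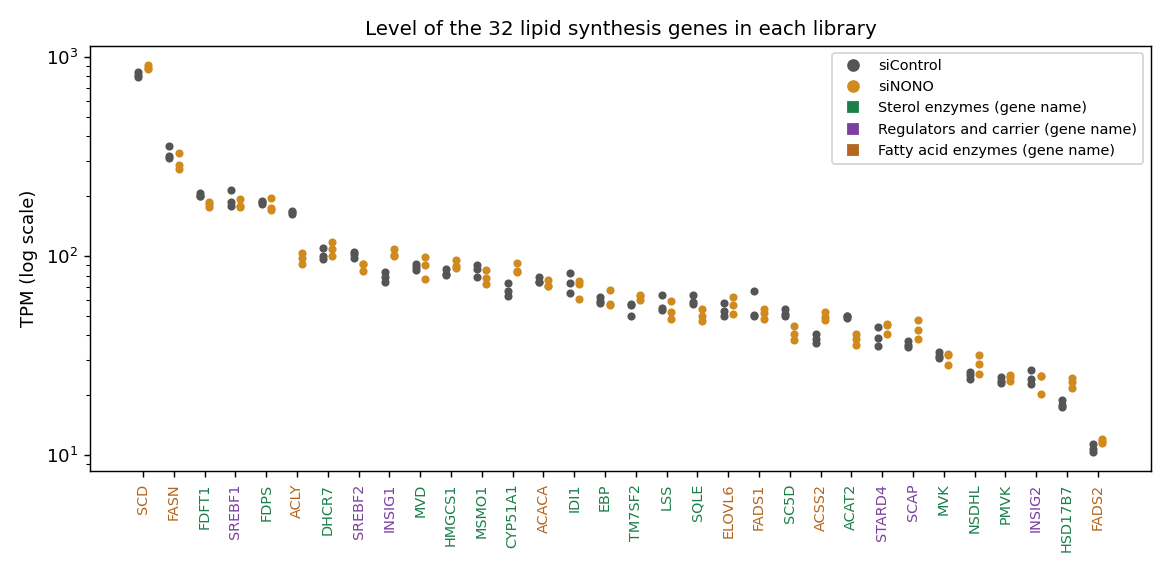
Level of each of the 32 genes in TPM (log scale), with 1 point per library for siControl and siNONO and genes ordered from high to low. SCD lies highest and FADS2 lowest, and the points of ACLY separate most clearly, near 166 TPM in siControl and 97.8 TPM in siNONO.

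Promoter sequences, credited to RefSeq on GRCh38.p14, were found for 28 of the 32 genes in windows from 250 bases before to 50 bases after the start, and 11669 of the genes tested had such a window. Exact matches on both strands were counted for TCACCCCAC and for TCACNCCAC, which includes it, forms of the sterol regulatory element to which SREBP binds, for CCAAT, bound by NF-Y, for GGGCGG, bound by Sp1, and for CACGTG, an E-box. NF-Y and Sp1 are known partners of SREBP at such promoters. CCAAT was in 18 of the 28 windows (64.3%), in 12 of 15 of the sterol enzymes, 3 of 6 of the regulators and carriers and 3 of 7 of the fatty acid enzymes, against 36.5% of all windows. GGGCGG was in 26 (92.9%, against 69.17%) and CACGTG in 4 (14.3%, against 9.94%), those of LSS, SC5D, INSIG1 and SCAP. TCACCCCAC was in the window of SREBF2 only (3.6%, against 0.37%), and TCACNCCAC added none (3.6%, against 1.05%). Only these exact forms in 1 window per gene were sought, so no match does not mean that a gene lacks the element. The median GC content was 67.5% in these windows and 65.3% in all.

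The sequences upstream of 5 genes are shown because these genes stand for the main patterns: INSIG1 and HMGCS1, which rose, ACLY and ACSS2, which moved in opposite directions, and SREBF2, with the element. Each run gives the 250 bases before the start, 5′ to 3′ on the strand of the gene, and capitals mark matches to these motifs on either strand (ATTGG is CCAAT and CCGCCC is GGGCGG on the other strand, and adjoining GGGCGG matches share bases). They lie at chr7:155297628-155297877 (plus strand, INSIG1), chr5:43313413-43313662 (minus, HMGCS1), chr17:41919023-41919272 (minus, ACLY), chr20:34874739-34874988 (plus, ACSS2) and chr22:41832855-41833104 (plus, SREBF2).
INSIG1: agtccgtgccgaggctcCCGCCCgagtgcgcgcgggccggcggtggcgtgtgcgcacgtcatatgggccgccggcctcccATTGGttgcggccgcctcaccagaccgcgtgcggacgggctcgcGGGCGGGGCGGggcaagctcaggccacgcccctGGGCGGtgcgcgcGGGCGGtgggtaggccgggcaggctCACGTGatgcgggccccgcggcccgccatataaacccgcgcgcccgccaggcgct
HMGCS1: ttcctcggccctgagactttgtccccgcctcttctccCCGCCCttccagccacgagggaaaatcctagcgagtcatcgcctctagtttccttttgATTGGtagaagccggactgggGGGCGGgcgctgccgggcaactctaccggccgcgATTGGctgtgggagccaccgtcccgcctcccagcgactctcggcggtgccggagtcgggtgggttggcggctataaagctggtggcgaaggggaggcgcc
ACLY: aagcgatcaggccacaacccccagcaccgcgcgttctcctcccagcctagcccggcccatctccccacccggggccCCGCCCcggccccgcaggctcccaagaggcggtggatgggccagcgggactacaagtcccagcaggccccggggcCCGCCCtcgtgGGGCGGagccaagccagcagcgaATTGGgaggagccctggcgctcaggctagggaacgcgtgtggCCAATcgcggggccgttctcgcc
ACSS2: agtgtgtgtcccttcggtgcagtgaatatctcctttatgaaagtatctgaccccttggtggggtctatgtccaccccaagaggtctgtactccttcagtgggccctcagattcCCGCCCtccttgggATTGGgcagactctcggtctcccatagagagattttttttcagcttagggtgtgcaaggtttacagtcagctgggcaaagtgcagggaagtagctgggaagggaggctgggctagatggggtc
SREBF2: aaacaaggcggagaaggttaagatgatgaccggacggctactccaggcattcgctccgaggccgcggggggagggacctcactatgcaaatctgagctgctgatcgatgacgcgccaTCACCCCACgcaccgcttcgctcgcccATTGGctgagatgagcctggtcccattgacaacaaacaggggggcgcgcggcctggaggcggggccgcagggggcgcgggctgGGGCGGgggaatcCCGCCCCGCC
All 5 hold a CCAAT match, and HMGCS1 and ACLY hold 2 each, so the match was present in genes of both directions. The E-box of INSIG1 was 55 bases before the start and the element of SREBF2 133 bases before it. A match is a run of letters and no measure of binding.

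Among the sterol enzymes, 6 of 18 rose, 2 fell and 10 were not called, with a median log2 fold change of 0.10 and a range from -0.29 to 0.38. Of the 7 enzymes up to farnesyl diphosphate, 1 rose and 1 fell (median 0.03), and of the 11 from squalene on, 5 rose and 1 fell (median 0.11). In Sets 1, 2 and 3 the median of all 18 was 0.05, 0.07 and 0.14. The balance of calls turned over on log2(TPM + 1), where 3 of the 18 were higher and 4 lower (median -0.02), and of the 11 from squalene on, 2 were higher and 3 lower (median 0.01). Over all genes, 23.2% were higher and 23.4% lower on counts. The calls of all genes also shifted to lower on log2(TPM + 1), with 1643 higher and 3614 lower, so this turn was not particular to the sterol enzymes.

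The first 2 enzymes were called in opposite directions. ACAT2, the cytosolic acetyl-CoA acetyltransferase that joins 2 acetyl-CoA, lies at chr6:160183077-160200144 (GRCh37, plus strand) and had 46.4, 46.2 and 45.6 CPM in siControl and 39.1, 35.7 and 38.1 CPM in siNONO. The groups did not overlap, and its log2 fold change was -0.29 ± 0.0474 (adjusted p = 0.000243). It shares 454 exonic bases with TCP1 on the opposite strand, at a mean of 382.07 TPM and with a log2 fold change of 0.11, so reads of both genes could be mixed if strand was not used in counting, which was not stated. HMGCS1, the synthase that makes hydroxymethylglutaryl-CoA, lies at chr5:43287572-43313614 (minus strand) and had 137, 133 and 122 CPM in siControl and 166, 156 and 152 CPM in siNONO. Every siNONO library lay above every siControl library, with a log2 fold change of 0.27 ± 0.0321 (adjusted p = 1.73e-05).

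The other 5 mevalonate enzymes were not called. MVK, the mevalonate kinase, IDI1, the isopentenyl diphosphate isomerase, and FDPS had log2 fold changes of 0.02, 0.03 and -0.01. PMVK, the phosphomevalonate kinase, had 0.13 (adjusted p = 0.134) and MVD, the decarboxylase that follows it, 0.11 (adjusted p = 0.0601). MVD was called higher in 4 of 15 alternatives: with no filter on low counts (0.13, adjusted p = 0.00998), with at least 10 counts in every library (0.11, adjusted p = 0.0406), without siControl of Set 2 (0.18, adjusted p = 0.0177) and without siNONO of Set 2 (0.17, adjusted p = 0.0253). Both of the latter take Set 2 out of the comparison and largely repeat each other.

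The largest rises of the late steps were those of 3 enzymes that act on lanosterol or its products. CYP51A1, the lanosterol demethylase, lies at chr7:91714301-91764117 (minus strand) and had 144, 139 and 126 CPM in siControl and 186, 177 and 169 CPM in siNONO. The lowest siNONO library was above the highest siControl library, and the log2 fold change was 0.38 ± 0.0320 (adjusted p = 9.19e-07), with 0.36, 0.36 and 0.43 in Sets 1 to 3. TM7SF2, a sterol reductase that acts on the product of CYP51A1, lies at chr11:64879317-64883856 (plus strand) and had 40.3, 37.9 and 42.1 CPM in siControl and 47.0, 49.4 and 54.1 CPM in siNONO. The groups did not overlap (log2 fold change 0.32 ± 0.0479, adjusted p = 0.000134), but on log2(TPM + 1) the difference was 0.18 and was not called (adjusted p = 0.0580).

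HSD17B7, the keto reductase of the demethylation cycle, lies at chr1:162760492-162782613 (plus strand) and had 16.8, 17.6 and 17.2 CPM in siControl and 21.4, 21.2 and 21.9 CPM in siNONO. Both groups were tight and separate, with a log2 fold change of 0.32 ± 0.0592 (adjusted p = 0.000633). Its counts were not whole in any of the 6 libraries, as happens where reads are shared between similar genes. The pseudogene HSD17B7P2 had a mean of 3.293 TPM and a log2 fold change of 0.18 (adjusted p = 0.445), so the split of reads between the 2 is uncertain.

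NSDHL, the decarboxylating dehydrogenase of the same cycle, rose by 0.25 (adjusted p = 0.00186) and DHCR7, the reductase of the final steps, by 0.23 (adjusted p = 5.12e-05). Neither was called on log2(TPM + 1), where they had 0.17 and 0.09. SQLE, the squalene epoxidase and a rate-limiting enzyme, fell by 0.16 on the log2 scale (adjusted p = 0.00203). FDFT1 (-0.05), LSS, the lanosterol synthase (0.08), MSMO1, the methylsterol monooxygenase (-0.05), EBP, the sterol isomerase (0.11), and SC5D, the sterol desaturase (-0.08), were not called. SC5D and FDFT1 were called lower on log2(TPM + 1), by -0.34 and -0.15. The mean isoform-weighted length of SC5D was 2683 ± 59.2 bases in siControl and 2989 ± 142 in siNONO, which enters TPM and not CPM.

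**Figure D2:**
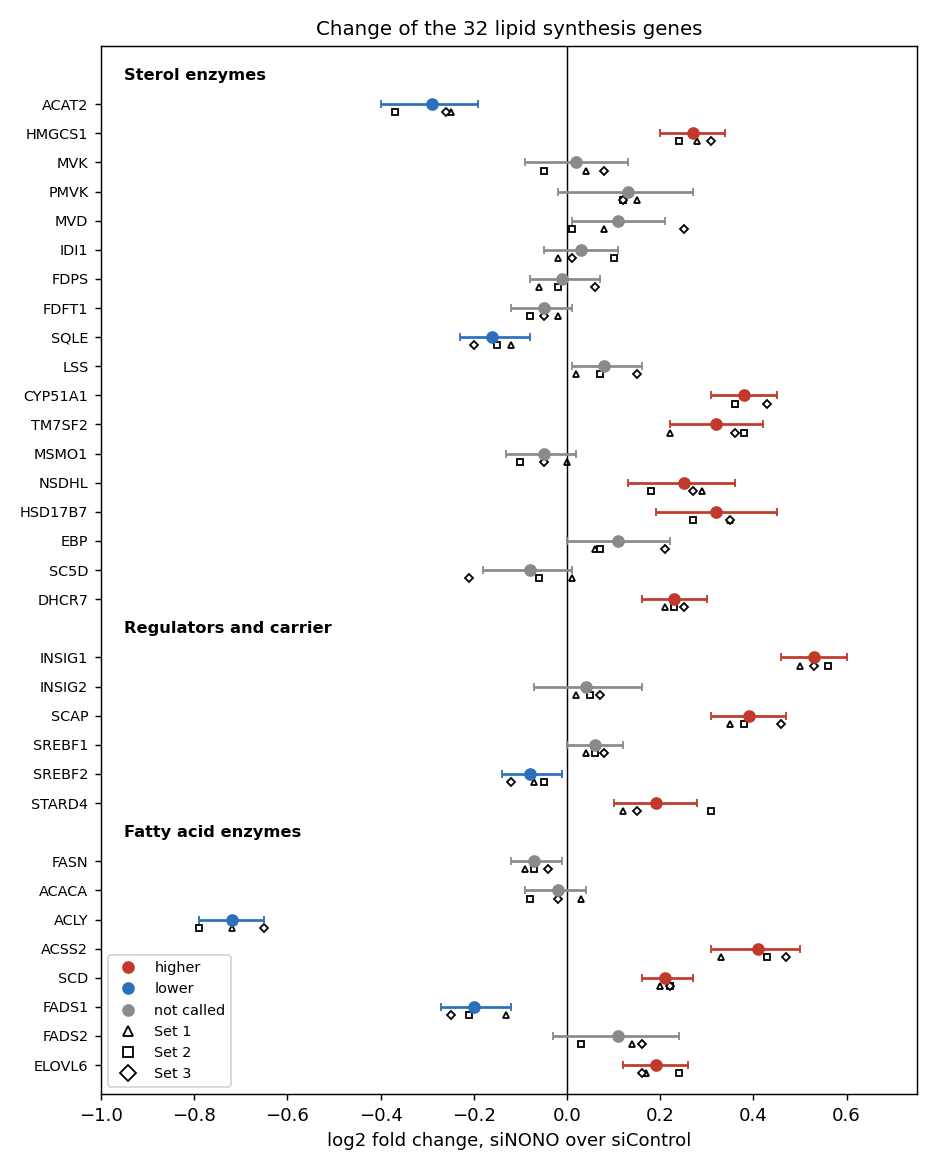
Log2 fold change of each of the 32 genes, siNONO over siControl, with 95% confidence intervals as bars, filled points coloured by call and open symbols for Sets 1 to 3. ACLY lies alone at the left (-0.72), INSIG1 is the rightmost (0.53), and the intervals of the genes not called lie between -0.18 and 0.27.

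Of the 6 regulators and carriers, 3 rose, 1 fell and 2 were not called, with a median log2 fold change of 0.13. Beside them, 23.2% of all genes were called higher and 23.4% lower. INSIG1, which holds SCAP in the endoplasmic reticulum and is itself a known SREBP target, had the largest rise of the 32 genes. The gene lies at chr7:155089486-155101945 (GRCh37, plus strand) and had 129, 119 and 115 CPM in siControl and 182, 175 and 165 CPM in siNONO. Each Set showed nearly the same step (0.50, 0.56 and 0.53), and the log2 fold change was 0.53 ± 0.0316 (adjusted p = 5.04e-08). Among all genes tested, 15.4% changed by more in absolute size. INSIG2, its paralogue, had 0.04 and was not called.

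SCAP, the escort of SREBP, lies at chr3:47455171-47518616 (minus strand) and had 78.1, 79.2 and 83.5 CPM in siControl and 99.2, 103 and 115 CPM in siNONO. The groups were well apart, with a log2 fold change of 0.39 ± 0.0365 (adjusted p = 2.36e-06). On log2(TPM + 1) it was 0.23 with an adjusted p of 0.0658. SCAP and INSIG1, which bind each other and act in opposite directions on SREBP, thus were both higher on counts.

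The 2 genes for the SREBP precursors moved little. SREBF1 had 248, 246 and 290 CPM in siControl and 255, 257 and 307 CPM in siNONO, with a log2 fold change of 0.06 (adjusted p = 0.112). SREBF2, the main regulator of sterol synthesis, had 311, 318 and 351 CPM in siControl and 296, 308 and 324 CPM in siNONO. It was called lower at -0.08, with an adjusted p of 0.0491. The groups overlapped in CPM for both genes. In TPM those of SREBF2 were separate, with 98.47 to 105.44 in siControl and 84.62 to 91.70 in siNONO. Its log2 fold change ran from -0.20 to -0.05 over the alternatives. The call of SREBF2 was lost in 10 of 15 alternatives, which included leaving out any 1 library (adjusted p from 0.0794 to 0.221). With the block kept, leaving out 1 library takes its whole Set out of the comparison. Without the Set as a block the adjusted p of SREBF2 was 0.319.

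STARD4, a soluble carrier that moves cholesterol between membranes, lies at chr5:110831731-110848288 (minus strand) and had 93.2, 81.1 and 70.7 CPM in siControl and 101, 101 and 78.3 CPM in siNONO. The groups overlapped, but within each Set siNONO was above siControl, by 0.12, 0.31 and 0.15. The log2 fold change was 0.19 ± 0.0421 (adjusted p = 0.00223), and without the Set as a block the adjusted p was 0.191.

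Of the 8 fatty acid enzymes, 3 rose, 2 fell and 3 were not called, with a median log2 fold change of 0.04 and a range from -0.72 to 0.41. Beside them, 23.2% of all genes were called higher and 23.4% lower. ACLY, the ATP citrate lyase that makes cytosolic acetyl-CoA from citrate, showed the largest change of the 32 genes. It lies at chr17:40023170-40086795 (minus strand) and had 454, 458 and 460 CPM in siControl and 275, 265 and 293 CPM in siNONO. The siNONO mean was 60.7% of the siControl mean on the fitted scale, with a log2 fold change of -0.72 ± 0.0326 (adjusted p = 4.09e-09). It ranked 662 from the lowest of the 17000 genes.

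ACSS2, the synthetase that makes acetyl-CoA from acetate, supplies the same pool. It lies at chr20:33459949-33515765 (plus strand) and had 46.9, 45.3 and 44.2 CPM in siControl and 59.1, 60.9 and 61.2 CPM in siNONO. The groups did not overlap, and the log2 fold change was 0.41 ± 0.0439 (adjusted p = 8.28e-06). The ratio of ACLY to ACSS2 in TPM was 4.13, 4.24 and 4.63 in the siControl libraries and 1.96, 1.92 and 1.98 in the siNONO libraries. ACLY remained the more abundant of the pair in every library.

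SCD lies at chr10:102106990-102124583 (plus strand) and had 2980, 2900 and 2880 CPM in siControl and 3420, 3380 and 3360 CPM in siNONO. The step was nearly the same in each Set (0.20, 0.22 and 0.22), and the log2 fold change was 0.21 ± 0.0246 (adjusted p = 1.57e-05). ELOVL6, an elongase that extends palmitate, rose by 0.19 (adjusted p = 0.000522), though by 0.08 and without a call on log2(TPM + 1). FASN (-0.07, adjusted p = 0.0545) and ACACA, the acetyl-CoA carboxylase (-0.02), were not called. FASN was called lower in 5 of 15 alternatives: with library size alone (-0.08, adjusted p = 0.0230), with limma on log2(TPM + 1) (-0.15, adjusted p = 0.0181) and on log2(TPM + 0.1) (-0.15, adjusted p = 0.0184), and without siControl of Set 3 (-0.07, adjusted p = 0.0109) and without siNONO of Set 3 (-0.08, adjusted p = 0.00424). Both of the latter take Set 3 out of the comparison and largely repeat each other.

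FADS1, a desaturase of polyunsaturated fatty acids, lies at chr11:61567099-61596790 (minus strand) and had 131, 136 and 134 CPM in siControl and 120, 117 and 113 CPM in siNONO. The groups did not overlap in CPM, and the log2 fold change was -0.20 ± 0.0347 (adjusted p = 0.000495). In TPM they overlapped, with 50.27, 50.92 and 67.10 in siControl and 54.44, 51.79 and 48.19 in siNONO. The gene shares 490 exonic bases with FADS2 on the opposite strand, and both had counts that were not whole in all 6 libraries. FADS2 had a log2 fold change of 0.11 (adjusted p = 0.173). FADS2 also shares 49 exonic bases on the same strand with FEN1, at a mean of 80.95 TPM and with a log2 fold change of -0.46. The call of FADS1 was kept in 13 of 15 alternatives.

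**Figure D3:**
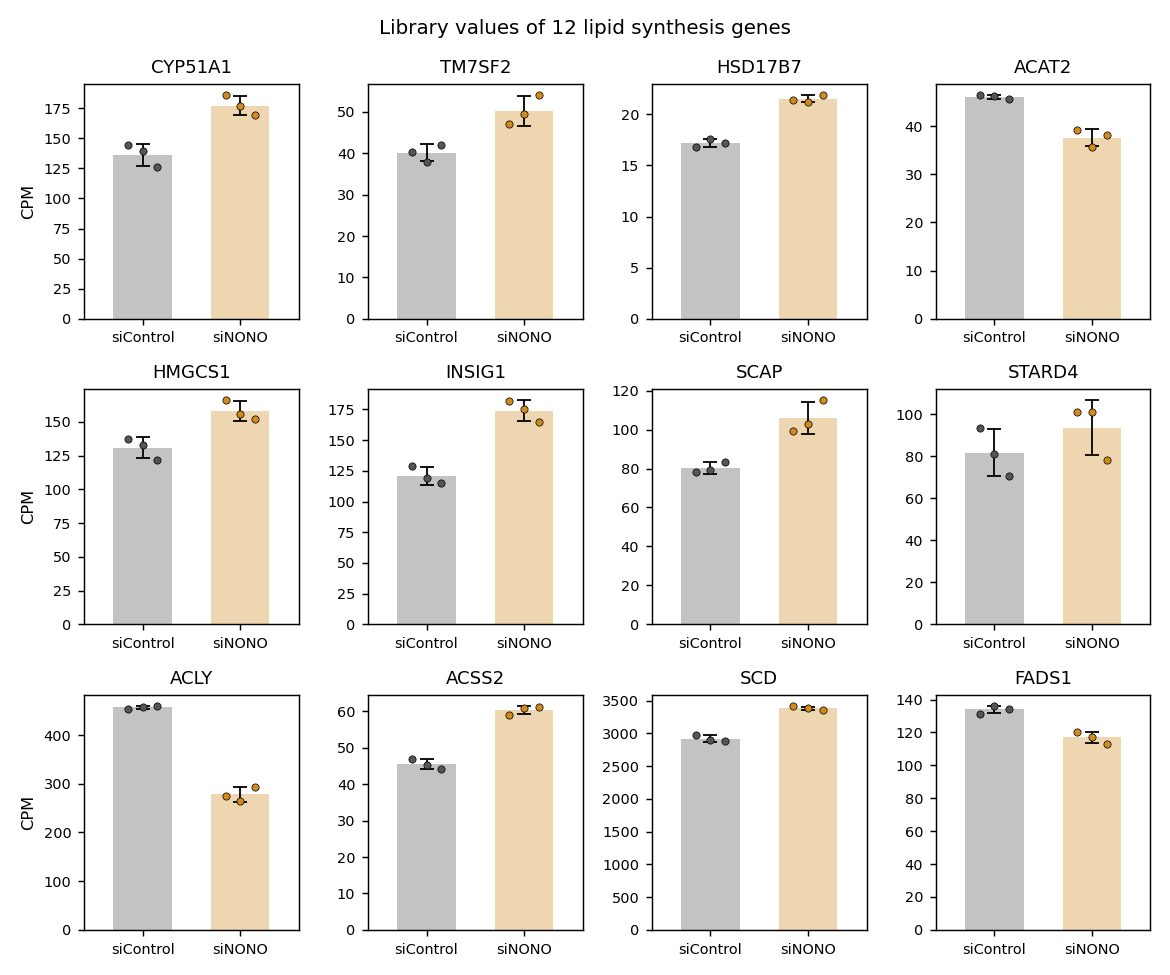
CPM of 12 genes with the largest absolute changes in their role groups, with 1 point per library, bars at the mean and error bars of 1 SD (n = 3). The groups overlap for STARD4 only, and ACLY falls from 457 to 278 CPM while ACSS2 rises from 45.5 to 60.4 CPM.

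Sterol and fatty acid enzymes were set side by side. Their medians were 0.10 and 0.04, a difference of 0.05 on the log2 scale from the unrounded medians. Within Sets 1, 2 and 3 it was -0.03, 0.09 and 0.06, so its sign changed with the Set, and it was -0.03 on log2(TPM + 1). The fatty acid enzymes ran from -0.72 (ACLY) to 0.41, beside -0.29 to 0.38 for the sterol enzymes. Without ACLY, left out after its change was seen, the lowest fatty acid enzyme was at -0.20.

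The length that RSEM assigned to each gene, an average over its isoforms, was tested as a readout on its own. Of 13638 genes with a varying length, 0 (0%) were called by limma, with a smallest adjusted p of 0.573 and 1112 genes (8.15%) at an unadjusted p under 0.05. Of the 30 lipid synthesis genes among them, only SC5D had an unadjusted p under 0.05.

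Other lipid genes were counted in lists, to be read beside the 46.6% of all genes that were called, 23.2% higher and 23.4% lower. Of 12 genes of SREBP processing and sterol-dependent degradation, 3 rose and 3 fell (median 0.03). ERLIN2 (0.65) rose and ERLIN1 (-0.47) fell, which encode partners in 1 complex that binds cholesterol. MBTPS2, the protease that makes the second cut of SREBP, fell (-0.41). Of 11 genes of sterol transport and esterification, 5 rose, led by GRAMD1A (0.36) and LIPA (0.28), and 3 fell, led by SOAT1 (-0.19) and OSBPL9 (-0.12). These 8 calls dropped to 4 without the Set as a block, with DESeq2 and on log2(TPM + 1). Calls over all genes also dropped in these fits, from 7924 to 6164, 5227 and 5257. The oxysterol and LXR genes, which act at high sterol, had 2 rises (LPCAT3, 0.26 and MYLIP, 0.15) and 1 fall (NR1H3, -0.26) in 8 genes tested, and CH25H and CYP7B1 were not tested because of low counts. These 3 calls dropped to 1 without the Set as a block, with DESeq2 and without either library of Set 1, and to 0 on log2(TPM + 1). Over all genes, 6572 were called without siControl of Set 1 and 6497 without siNONO of Set 1. The adjusted p of MYLIP was 0.0469. Of 14 genes of the isoprenoid branches, 6 rose and 4 fell, among them RABGGTA (0.30), which rose, and ICMT (-0.47) and TRIT1 (-0.36), which fell.

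Of 19 genes of fatty acid supply, elongation and activation, 10 were higher and 5 lower (median 0.12). For this list and the next ones, the shares of all genes were 23.2% higher and 23.4% lower. Of 4 acyl-CoA synthetases, ACSL5 rose from 161 ± 2.28 to 235 ± 7.27 CPM (0.54, adjusted p = 3.35e-08) and ACSL3 fell from 261 ± 11 to 172 ± 12.3 CPM (-0.60, adjusted p = 1.60e-08), while ACSL4 rose by 0.16 and ACSL1 had 0.09 and was not called. The desaturase SCD5 fell (-0.58) while SCD rose, and the elongase ELOVL1 rose (0.32). Without the Set as a block, 7 of the 19 genes were called, beside 6164 of all 17000. On log2(TPM + 1), 7 were called, beside 5257 of all genes, and the list median was 0.03. In glycerolipid synthesis 5 of 13 rose, led by AGPAT1 (0.41) and DGAT2 (0.38), and 5 fell, led by LPIN2 (-0.54) and PCYT1A (-0.27). In fatty acid oxidation 3 of 14 rose, led by ECI1 (0.24) and HADHB (0.17), and 4 fell, led by HADH (-0.41) and PPARA (-0.40), a nuclear receptor that induces oxidation.

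**Figure D4:**
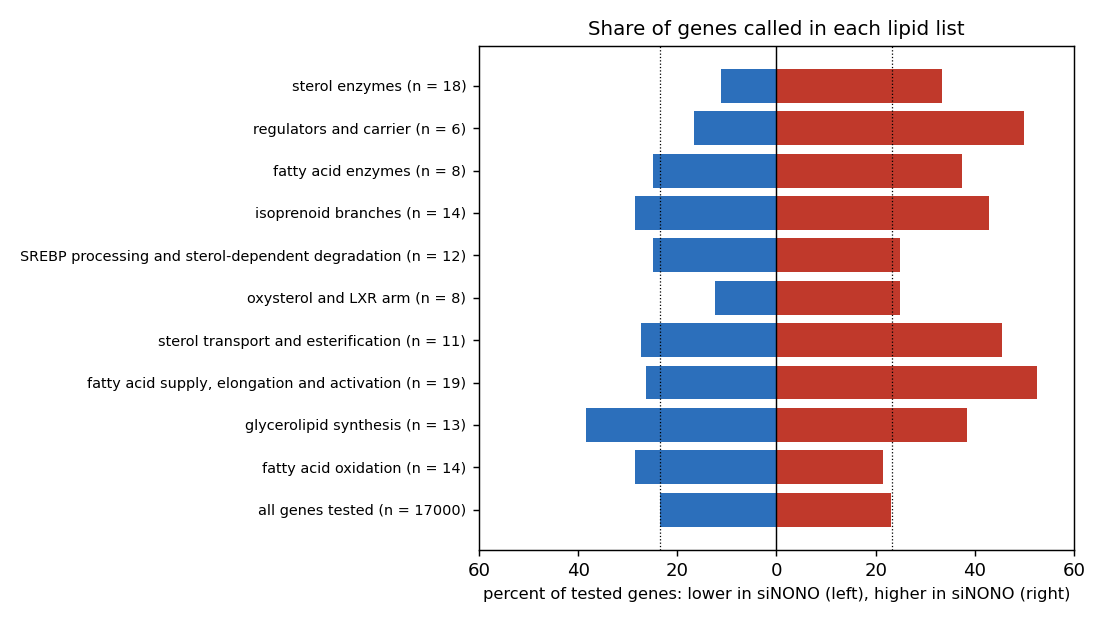
Percent of tested genes called lower (left) and higher (right) in siNONO in each list of lipid genes, with dotted lines at the shares of all 17000 genes (23.4% and 23.2%). Calls in both directions are present in every list, with 10 of 19 genes higher for fatty acid supply, elongation and activation.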

How the data were processed

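Human HCT116 RNA-seq comprised 3 siControl and 3 siNONO libraries. Reads had been trimmed (sickle) and mapped with STAR against GENCODE transcripts of GRCh37. Per library, the authors deposited the RSEM 1.3.1 output: the estimated counts of each gene, its TPM and its isoform-weighted length. The library kit was stranded, and the strand setting of RSEM was not given in the sources used here.

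Counts were rounded and tested with edgeR 4.0.16 (quasi-likelihood F-test in the edgeR 3 form, two-sided), TMM, filterByExpr and the Set as a block, as the study adjusted for batch, with Benjamini-Hochberg adjustment over 17000 genes and a threshold of 0.05. Errors beside log2 fold changes are SE with n = 3 per group. Lengths and log2(TPM + 1) were tested with limma 3.58.1. Same-numbered libraries deviated together (correlations 0.427, 0.253 and 0.504 for Sets 1 to 3, 10840 genes), so the Set paired them. Replicate pairs differed by more than sampling noise (chi-square per gene 3.23 and 3.44 between Sets 1 and 2, and higher against Set 3, at 6.69 and 7.76 in siControl and 12.7 and 13.8 in siNONO). On simulated counts of 16758 genes for this comparison, 88.7% of 97 genes changed by 1 on the log2 scale and 70.7% of 99 changed by 0.5 were recovered, with 8 false calls. Alternatives were 2 other scalings, other filters, no block, the edgeR 4 form, DESeq2 1.42.0, limma on TPM with pseudocounts of 1 and 0.1, and leaving out each library. The block was kept when a library was left out, so its partner, alone in its Set, held no information on the siRNA. Both fits for a Set thus compare the same other Sets and largely repeat each other.

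The members and lists were chosen with earlier results of these data known. Library values and full statistics were given for the 5 sterol enzymes, 3 regulators or carriers and 4 fatty acid enzymes with the largest absolute change, and up to 2 called genes per direction were named in each other list, except for genes that are not reported here.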

Additional observations from a re-analysis of the deposited data

How the results depend on the processing

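Of the 17 called genes, 9 kept their direction and call in all 15 alternatives: ACAT2, HMGCS1, SQLE, CYP51A1, HSD17B7, INSIG1, ACLY, ACSS2 and SCD. ACLY ranged from -0.77 to -0.67 and INSIG1 from 0.39 to 0.55. Genes called numbered 5227 with DESeq2, 5257 on log2(TPM + 1) and 5250 on log2(TPM + 0.1), against 7924. The cause of each change below was not tested. In the simulation, changes of 0.5 on the log2 scale were recovered less often than those of 1. Few genes were changed there, drawn from all levels, so it does not measure recovery for the lipid synthesis genes. Most of these changed by less than 0.5, and some such changes were called, as for SQLE (-0.16) and SCD (0.21).

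With no replicate block, 6164 genes and 15 of the 32 were called, STARD4 (adjusted p = 0.191) and SREBF2 (adjusted p = 0.319) being lost, so 0 regulators and carriers were lower. Called genes were then 1 in the oxysterol and LXR arm, 4 in sterol transport and 7 in fatty acid supply. Regulators and carriers lower were also 0 with DESeq2 size factors, with no filter and with DESeq2, which gave 1 call in the oxysterol arm, 4 in sterol transport and 6 in glycerolipid synthesis. With library size alone the median of fatty acid supply was 0.10. With no filter the medians were 0.05 (SREBP processing), 0.16 (oxysterol arm) and 0.14 (fatty acid supply), FDPS was 0.01, and 2 enzymes up to farnesyl diphosphate were higher, as with at least 10 counts in every library.

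With limma on log2(TPM + 1) and on log2(TPM + 0.1) alike, sterol enzymes were higher in 3 and lower in 4 (median -0.02), those from squalene on in 2 and 3 (median 0.01), regulators and carriers were higher in 1 (median 0.04), and the median up to farnesyl diphosphate was -0.05. Of all genes, 1643 were higher and 3614 lower on log2(TPM + 1). The sterol minus fatty acid median was -0.03 and -0.04. Calls were 6 in the isoprenoid branches, 0 in the oxysterol arm, 4 in sterol transport, 7 in fatty acid supply and 4 in fatty acid oxidation, and medians -0.02 (isoprenoid), -0.05 (SREBP processing), 0.04 (oxysterol), 0.01 (transport), 0.03 (supply), -0.19 (glycerolipid) and -0.18 (oxidation). MVK (-0.05), IDI1 (-0.08), LSS (-0.10), INSIG2 (-0.07) and SREBF1 (-0.08) changed sign, none called.

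Leaving out 1 library at a time gave 0 regulators and carriers lower in each case (range 0 to 0), 1 to 2 enzymes up to farnesyl diphosphate higher (median 0.04 to 0.07), a sterol enzyme median of 0.05 to 0.12, 1 to 3 calls in the oxysterol arm and 4 to 9 in sterol transport (median 0.02 to 0.10). Over all genes, 6497 to 7653 were called in these fits. As the block was kept, leaving out either library of a Set takes that Set out of the comparison. The oxysterol arm had 1 call without either library of Set 1. Sterol transport had 4 without either library of Set 1 or without siNONO of Set 2, and 5 without siControl of Set 2. The count of 2 up to farnesyl diphosphate was that without either library of Set 2. Medians ran from 0.09 to 0.13 for fatty acid supply, 0.01 to 0.06 for SREBP processing, -0.05 to 0.00 for glycerolipid synthesis and -0.05 to -0.01 for oxidation. FDPS ran from -0.04 to 0.02, ACACA from -0.05 to 0.02, MVK from 0.00 to 0.07 and IDI1 from -0.01 to 0.06.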
